A study of Drosophila melanogaster with 12 samples.

Results

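The genes described here are the nuclear genes of Drosophila melanogaster whose products build the oxidative phosphorylation machinery of mitochondria. They were taken as every nuclear gene whose FlyBase symbol begins with ND-, Sdh, UQCR-, COX or ATPsyn, a rule that uses names and no measured value. Of 88 such genes in the annotation, 73 had rows in the count tables, among 10422 genes in all. These 73 members comprise 33 genes of complex I, 5 of complex II, 8 of complex III, 14 of complex IV and 13 of complex V. One of them, Sdhaf3, encodes an assembly factor of complex II and not a subunit, and 10 are duplicate copies of a subunit gene, marked by an L near the end of the symbol. The 15 genes without rows were 14 duplicate copies and ND-MNLL. Some subunit genes carry older names (blw, levy, cype, ox, RFeSP, Cyt-c1, sun) and fall outside the rule. They are given at the end for comparison, together with the cytochrome c genes Cyt-c-p and Cyt-c-d.

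Oxidative phosphorylation passes electrons from NADH and succinate through complexes I to IV to oxygen, and complex V, the ATP synthase, uses the resulting proton gradient to make ATP. Most subunits are encoded in the nucleus, translated in the cytosol and imported into mitochondria, and heads rich in neurons and photoreceptors depend heavily on this supply. PUF proteins have a known link to such transcripts: in budding yeast, Puf3 binds the 3′ UTRs of many nuclear mRNAs for mitochondrial proteins, and Drosophila Pumilio (Pum) has been described as a translational repressor of respiratory chain mRNAs at the mitochondrial outer membrane. The comparison of Pum-bound RNA with input and with a mock purification asks whether these mRNAs were recovered with Pum from fly heads.

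RNA was measured by cross-linking RNA immunopurification and 3′-end sequencing (xRIP-3′-seq), in which proteins are linked to bound RNA by UV light and purified on antibody beads, and transcripts that come along are counted by their 3′ ends. Pum xRIP (4 libraries) used pumFlag flies, in which the endogenous pum gene carries a C-terminal Flag-HA tag, control xRIP (4 libraries) used w1118 flies without a tag and the same anti-Flag beads, and input (4 libraries) was head homogenate. All flies were adults, males and females in equal amounts, the sample sheet lists the genotype as wt throughout, and no more exact age was given. Inputs came from pumFlag flies, from w1118 flies and from 2 preparations of mixed genotype whose columns are named fne and rbp9. Library origin within a group was not stated, so p-values measure the spread between libraries, which may be technical.

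Inputs held 9563433 to 13726254 counts, control xRIP 3342790 to 4485996 and Pum xRIP 3050717 to 5051009. Genes with a count numbered 8678 to 9603 in the inputs, 3992 to 5134 in control xRIP and 4100 to 6110 in Pum xRIP. The transcript of pum itself lay between 1112 and 2420 CPM in Pum xRIP, between 38.2 and 76.2 in input and between 0 and 47.5 in control xRIP, where CPM is the depth-scaled count on the TMM-adjusted library size. Markers of photoreceptors (8 genes) and neurons (9 genes) were all detected in input. The xRIP groups also differed in the shares of marker genes. Muscle markers (13 genes, 11 of them tested) took 1.14% to 2.23% of counts in control xRIP and 0.149% to 0.446% in Pum xRIP. In input their share ran from 0.134% (pumFlag) to 0.513% (w1118). Each of these genotypes had 1 input library, and a difference between them was not tested. Of the tested muscle markers, TpnC4 was at 0 in all Pum xRIP libraries. Neuronal markers took 0.0429% to 0.0836% in control xRIP against 0.824% to 1.33% in Pum xRIP (0.328% to 0.501% in input). In the same order, photoreceptor markers took 0.703% to 0.959% against 2.04% to 2.28% (2.85% to 3.92% in input). Fat body markers took 0.283% to 0.382% against 0.574% to 0.803%, and cytoplasmic ribosomal protein genes 28.1% to 29.8% against 17.0% to 19.5%. The part of these differences in the results below was not tested. Marker shares in xRIP libraries also depend on which RNAs were recovered, and the paper names the neuronal markers Syt1, para and brp among Pum targets. Fewer cells of a type in a preparation, less RNA per cell and different recovery of an RNA cannot be told apart here.

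The members together took a larger share of control xRIP libraries than of Pum xRIP or input libraries. Their summed counts made up 4.75%, 3.63%, 4.15% and 4.24% of the w1118, pumFlag, fne and rbp9 inputs, 7.40%, 7.88%, 7.55% and 7.38% of the control xRIP libraries and 3.63%, 3.62%, 3.84% and 3.59% of the Pum xRIP libraries. All control values lay above all others, whereas Pum xRIP overlapped input. The group means were 4.19% ± 0.461 in input, 7.55% ± 0.230 in control xRIP and 3.67% ± 0.117 in Pum xRIP (SD, n = 4 each). By complex, the steepest contrast between control xRIP and input was found for complex V (2.48% ± 0.0883 against 1.21% ± 0.134) and complex IV (2.28% ± 0.104 against 1.04% ± 0.137). In Pum xRIP both complexes overlapped input, at 1.18% ± 0.0396 and 1.05% ± 0.0621. Complex I was different, with 0.965% ± 0.0362 in Pum xRIP below 1.33% ± 0.127 in input and no overlap between the libraries. Complex III likewise had 0.382% ± 0.0235 below 0.485% ± 0.0464 without overlap.

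**Figure D1:**
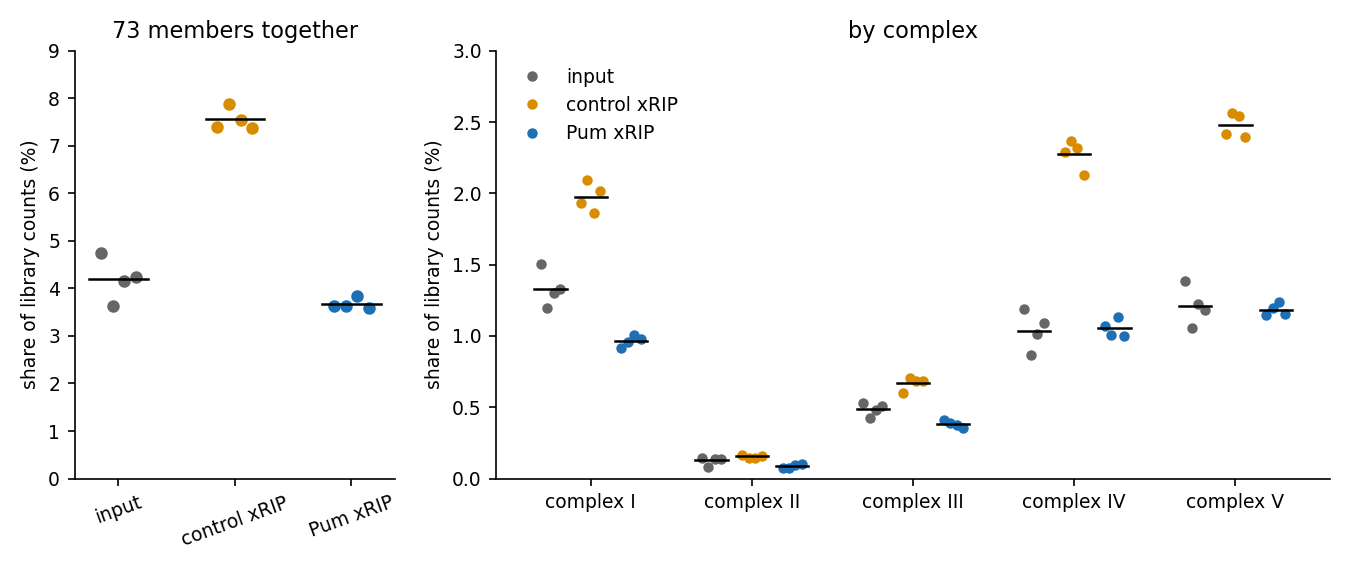
Share of all counts of a library (%, linear axis from 0) taken by the 73 members together (left) and by the members of each complex (right), with 1 point per library and a bar at the group mean. The control xRIP libraries (7.38% to 7.88%) sit above the inputs (3.63% to 4.75%) and the Pum xRIP libraries (3.59% to 3.84%).

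Of the 73 members, 62 passed the default expression filter of edgeR and were tested among 7645 genes. The 11 left out were ND-B8, ND-B14.5B and the duplicate copies except COX7AL2. A member was called at an adjusted p below 0.05 (edgeR quasi-likelihood F test, Benjamini-Hochberg over all 7645 genes) with a log2 fold change beyond 1 in size.

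With TMM scaling, no member passed the call for enrichment over input. In Pum xRIP against input, 0 of 62 members were called higher, where 0.549% of all genes were, and 8 were called lower, where 4.87% were. COX7A, a small subunit of complex IV, was the single member higher at an unadjusted p below 0.05. Without adjustment 20 were lower at that threshold, and DESeq2 on the 3 groups likewise called 0 higher. In either direction, 21 of 62 members and 1390 of 7645 genes had an unadjusted p below 0.05. The median log2 fold change of the members was -0.28 against -0.54 for all genes tested, and 42 of 62 members lay above the median of all genes. The fitted value was above 0 in 12 members, where it was above 0 in 34.9% and below 0 in 65.1% of all genes. All Pum xRIP libraries lay below all inputs in 19 members (22.6% of all genes) and above them in 0 (5.57%). The sign of the member median depended on the scaling, since it was 0.18 with the size factors of DESeq2, where the median of all genes was -0.08. The distance of the members from all genes was 0.26 and 0.27 on the log2 scale under these 2 scalings. With the size factors, 5 members were called lower and 1, COX7A, higher, and over all genes the calls split into 102 higher and 317 lower in place of 42 and 372.

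In the mock purification the picture was another. In control xRIP against input, 24 of 62 members were called higher, where 1.82% of all genes were, and 0 were called lower, where 10.7% were. Without adjustment, 9 members were lower at a p below 0.05, and DESeq2 on the 3 groups called 1 lower. In either direction, 45 of 62 members and 1984 of 7645 genes had an unadjusted p below 0.05. The member median was 0.92 against -0.83 for all genes, and in 36 of 62 members every control library lay above every input library, which held for 4.22% of all genes, and below in 7, which held for 31.8%. Tested members had a median level of 511 CPM in input. Genes of like abundance were not set beside them in any comparison, and all genes include many without a count in xRIP libraries. The fitted value was above 0 in 50 members and in 32.5% of all genes. The 24 comprised 8 of 11 tested members of complex V, 7 of 9 of complex IV, 3 of 6 of complex III, 6 of 31 of complex I and 0 of 5 of complex II. The number called was sensitive to single libraries, since it fell to 10 without the pumFlag input and to 13, 9, 10 and 8 without control xRIP 1, 2, 3 and 4, while the member median stayed between 0.56 and 0.99.

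ATPsynC, on 3R:31216145-31219630 (dm6, minus strand), encodes the subunit of the membrane ring that turns with proton flow. It showed the largest called rise, with 1183, 991, 1160.3 and 1396 CPM in the inputs, 4646, 4178, 4597 and 4809.9 CPM in control xRIP and 1038, 1389, 1747 and 1596 CPM in Pum xRIP. Every control library exceeded every input, whereas Pum xRIP and input overlapped (log2 fold change 1.95 ± 0.19 (SE, n = 4 and 4), adjusted p = 5.2e-05 for control against input, and 0.29 ± 0.18, adjusted p = 0.6 for Pum xRIP against input). COX7A (3R:8339944-8341043, minus strand) was measured at 522, 356, 444 and 392 CPM in the inputs, 1271, 1167, 2000.2 and 1277 CPM in control xRIP and 868, 459, 1036 and 517 CPM in Pum xRIP. Its control libraries were all above both other groups, and its Pum xRIP libraries ranged from within the inputs to above them (log2 fold change 1.74 ± 0.31 (SE, n = 4 and 4), adjusted p = 0.0027 for control against input, and 0.75 ± 0.30, adjusted p = 0.17 for Pum xRIP against input).

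UQCR-11, a small subunit of complex III, followed with 541, 660.2, 434 and 599.8 CPM in the inputs, 1246, 1445, 1649.5 and 2017 CPM in control xRIP and 573, 937, 567 and 865 CPM in Pum xRIP (log2 fold change 1.51 ± 0.26 (SE, n = 4 and 4), adjusted p = 0.0023 for control against input). COX7B, another small subunit of complex IV, stood at 932, 794, 738 and 914 CPM in the inputs, 2188, 2769.8, 2189 and 2414 CPM in control xRIP and 821, 582, 683 and 575 CPM in Pum xRIP (log2 fold change 1.501 ± 0.20 (SE, n = 4 and 4), adjusted p = 0.00034). In both genes control xRIP was separate from input and from Pum xRIP, and Pum xRIP overlapped input. COX5B (1.47 ± 0.30, adjusted p = 0.0069) and ATPsynF (1.40 ± 0.29, adjusted p = 0.0075), a subunit of the membrane part of the synthase, completed the 6 largest called rises.

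COX4 (2L:19958713-19960065, plus strand), a regulatory subunit of complex IV, was the most abundant member in input, with 3368, 3318, 2923 and 2849.7 CPM in the inputs, 7295, 5714, 8022 and 6569 CPM in control xRIP and 2804, 2169, 3149 and 2777 CPM in Pum xRIP. Counts of 3′ ends do not grow with transcript length. The authors' removal of signal beside genomic runs of A may still take unequal parts from different genes. Ranks of genes by CPM are therefore approximate. COX4 was higher in every control library than in every input (log2 fold change 1.15 ± 0.16 (SE, n = 4 and 4), adjusted p = 0.00049) and lay close to input in Pum xRIP (-0.19 ± 0.16, adjusted p = 0.78). ATPsynD, which encodes subunit d of the stalk that holds the synthase still, showed the same order of groups, with 1823, 2056, 1552 and 1599 CPM in the inputs, 3756, 4349, 3327 and 3522 CPM in control xRIP and 1455, 1651, 1486 and 1446 CPM in Pum xRIP (log2 fold change 1.09 ± 0.16 (SE, n = 4 and 4), adjusted p = 0.00084 for control against input). Other abundant members called higher in the mock purification were COX6B (1.30 ± 0.23), COX7C (1.08 ± 0.25), ND-PDSW (1.38 ± 0.30) and UQCR-6.4 (1.02 ± 0.26). ND-B12 (0.92 ± 0.27), UQCR-14 (0.76 ± 0.23) and SdhD (0.86 ± 0.28), a membrane anchor of complex II, had all control libraries above all inputs but did not pass the fold or the p threshold. SdhC, the other anchor, and SdhB, the iron-sulfur subunit, had 0.43 ± 0.32 and -0.85 ± 0.72.

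**Figure D2:**
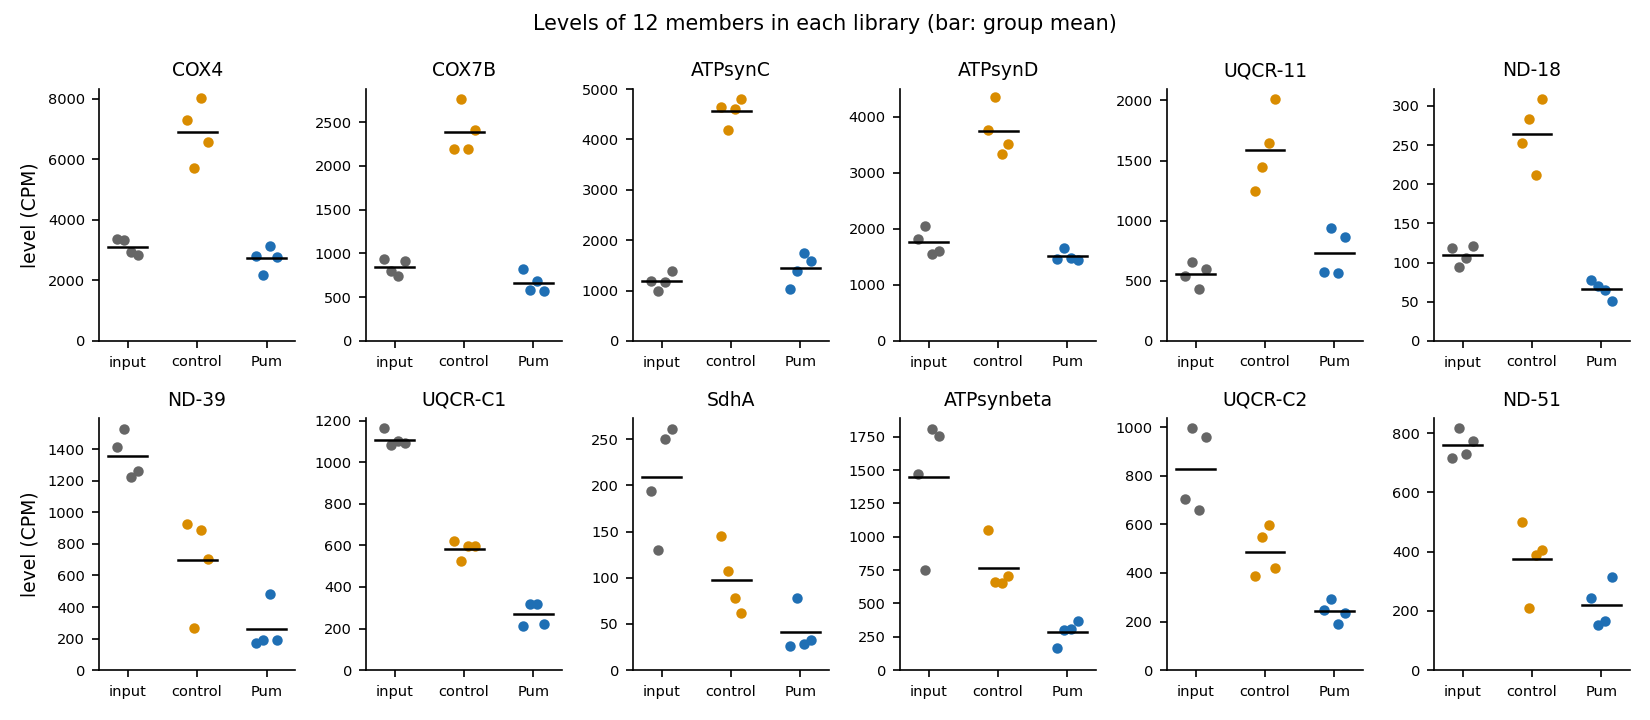
Levels (CPM, linear axes from 0, each panel with its own scale) of 12 members in the 4 libraries of input, control xRIP and Pum xRIP, with a bar at each group mean. In the upper row control xRIP is highest and Pum xRIP lies near input or, for ND-18, below it, and in the lower row the mean falls from input through control xRIP to Pum xRIP.

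The 8 members called lower in Pum xRIP than in input encode, in 7 of the 8 cases, proteins of 400 residues or more, with ATPsyngamma the exception. UQCR-C1, a core protein of complex III on 3R:14890231-14892387 (plus strand), had 1164, 1081, 1099.7 and 1091 CPM in the inputs, 619, 523, 595 and 597 CPM in control xRIP and 214, 319, 316 and 223 CPM in Pum xRIP. The 3 groups were fully separate, in the order input, control xRIP and Pum xRIP, with log2 fold change -2.05 ± 0.24 (SE, n = 4 and 4), adjusted p = 0.00071 for Pum xRIP against input and -0.93 ± 0.23 (adjusted p = 0.019) for control xRIP against input. ATPsynbeta on chromosome 4, the catalytic subunit of the ATP synthase, had 1469.6, 748, 1806 and 1756 CPM in the inputs, 1054, 660.0, 650.3 and 706 CPM in control xRIP and 163, 302, 308 and 367 CPM in Pum xRIP. All Pum xRIP values lay below all others, while control xRIP overlapped the pumFlag input (log2 fold change -2.34 ± 0.34 (SE, n = 4 and 4), adjusted p = 0.0025 for Pum xRIP against input).

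ND-39, a large accessory subunit of complex I (NDUFA9 in human), was the most abundant member of its complex in input, with 1412, 1528, 1223 and 1260.2 CPM in the inputs, 929, 268, 885 and 703 CPM in control xRIP and 170.4, 191, 482 and 193 CPM in Pum xRIP. Pum xRIP was below input in every library (log2 fold change -2.39 ± 0.42 (SE, n = 4 and 4), adjusted p = 0.0073), and Pum xRIP 3 stood apart from the other 3 libraries of its group. SdhA, the flavoprotein of complex II that oxidizes succinate, was measured at 193, 129.9, 249.97 and 261 CPM in the inputs, 145, 107, 77.6 and 62.1 CPM in control xRIP and 25.6, 78.3, 28.5 and 33.1 CPM in Pum xRIP. Its Pum xRIP values were again all below input but overlapped control xRIP (log2 fold change -2.33 ± 0.58 (SE, n = 4 and 4), adjusted p = 0.029). ND-51, which carries the NADH binding site in its human counterpart NDUFV1, had 717, 817, 729 and 772 CPM in the inputs, 499, 209.7, 389.8 and 406 CPM in control xRIP and 244, 152, 166 and 316 CPM in Pum xRIP (log2 fold change -1.79 ± 0.34 (SE, n = 4 and 4), adjusted p = 0.0099). Its Pum xRIP and control xRIP libraries all lay below input and overlapped each other.

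UQCR-C2 (-1.78 ± 0.28, adjusted p = 0.0043) and ATPsyngamma, the central stalk of the synthase (-1.57 ± 0.42, adjusted p = 0.045), were also called. In control xRIP against input, UQCR-C2 (-0.77 ± 0.28), ND-51 (-1.01 ± 0.33), SdhA (-1.09 ± 0.55), ND-39 (-0.96 ± 0.40) and ATPsynbeta (-0.91 ± 0.33) had fitted values below 0 too, none of them called. The count of 8 fell to 5 without the w1118 input or without the fne input, and to 1 without both inputs of mixed genotype. Over all genes the share called lower in these fits was 3.3%, 3.14% and 0.4%, against 4.87% with all libraries. The call of SdhA was lost without the w1118, fne or rbp9 input and without Pum xRIP 1, 3 or 4.

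**Figure D3:**
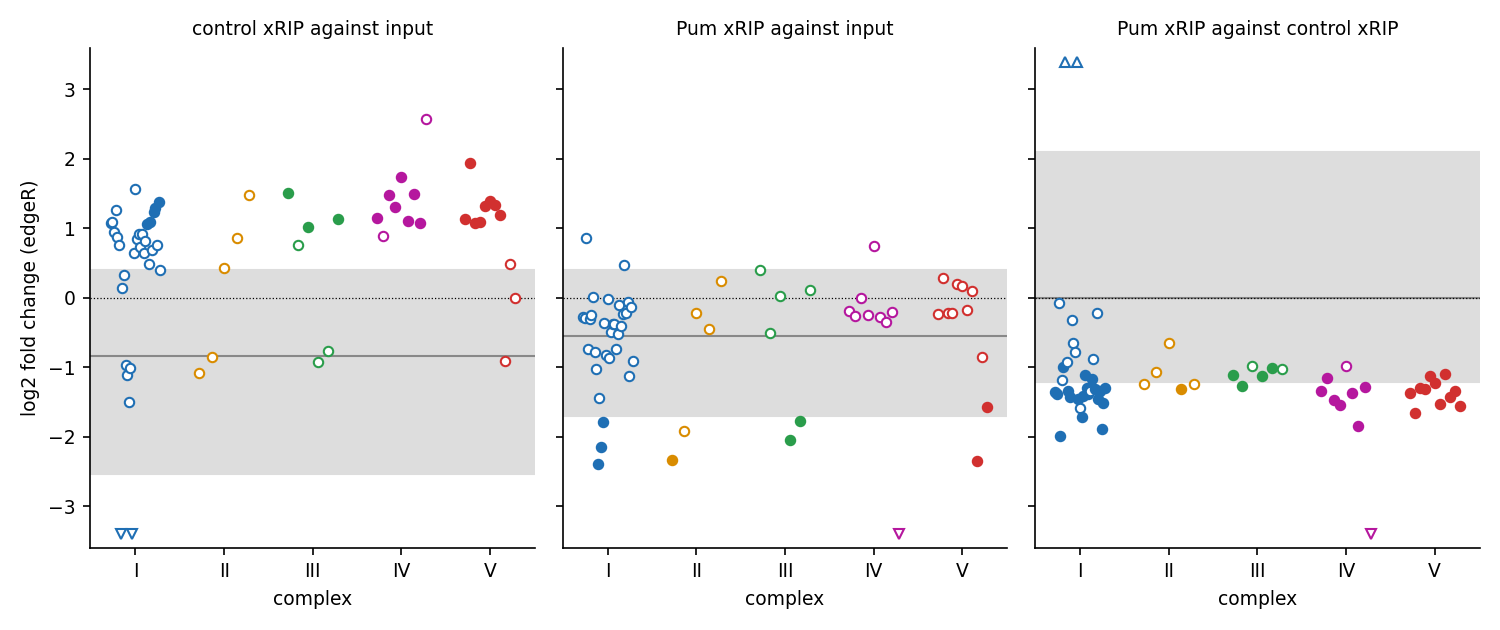
Fitted log2 fold change of each tested member by complex (edgeR), 1 panel per comparison, with filled points for called members and open points for others. The grey band and line give the quartiles and median of all 7645 genes, and triangles mark members beyond the axis. In control xRIP against input 50 of 62 members lie above 0, and in Pum xRIP against control xRIP the members have a median of -1.30.

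Set directly against the mock purification, all tested members but 2 had fitted values below 0 in Pum xRIP. In Pum xRIP against control xRIP, 42 of 62 members were called lower, where 4.45% of all genes were, and 0 higher, where 7.72% were. ND-23 and ND-75 were higher at an unadjusted p below 0.05, and DESeq2 on the 3 groups called 1 member, ND-23, higher. The fitted value was above 0 in these 2 members alone, where it was above 0 in 49.6% of all genes, with a median of -1.30 (quartiles -1.42 and -1.08) against 0 for all genes. In 48 members every Pum xRIP library lay below every control library, which held for 5.70% of all genes, and the reverse, seen in 9.95% of all genes, in 0 members. The 42 comprised 11 of 11 tested members of complex V, 7 of 9 of complex IV, 4 of 6 of complex III, 19 of 31 of complex I and 1 of 5 of complex II. This comparison and that of control xRIP with input use the same control libraries, so the values are not independent. Over all genes the calls split into 590 higher and 340 lower, 63.4% higher, which became 73.4% with the size factors of DESeq2 and 74.4% with library totals.

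The middle of these values was narrow, with an interquartile width of 0.35, but the SD over the members was 1.87, since COX8 (-8.31), ND-23 (8.01) and ND-75 (7.30), which have no or almost no counts in 1 of the groups, lay far out. Fitted values of ND-23 and ND-75 depend on the prior count and are no measure of size. COX7B had the smallest adjusted p of the members (log2 fold change -1.84 ± 0.20 (SE, n = 4 and 4), adjusted p = 7.8e-05), and the largest called folds were those of ND-18 (-1.99 ± 0.41, adjusted p = 0.0068) and ND-MWFE (-1.89 ± 0.41, adjusted p = 0.01). ND-18 (NDUFS4 in human) was at 119, 94.1, 106 and 122 CPM in the inputs, 252, 283, 212 and 309 CPM in control xRIP and 77.7, 70.5, 65.3 and 51.4 CPM in Pum xRIP, and was lower in every Pum xRIP library than in every library of the other groups. ND-MWFE (NDUFA1 in human) had 513, 401, 414 and 392 CPM in the inputs, 1028, 595, 468 and 827 CPM in control xRIP and 259, 68.2, 272 and 188 CPM in Pum xRIP. Its Pum xRIP libraries also lay below all others, with Pum xRIP 2 the lowest. ND-ASHI (-1.72 ± 0.34), ATPsynC (-1.66 ± 0.19) and ATPsyngamma (-1.56 ± 0.42) completed the 6 largest called differences. The count of 42 moved with the settings, to 25 with the size factors of DESeq2 and 24 with DESeq2 on the 3 groups. On these 2 groups alone it was 26 with edgeR and 15 with DESeq2. It was 23 with library totals, 26 without the pumFlag input and 26 and 25 without control xRIP 3 and 4. Over all genes the share called lower was 3.22%, 8.37%, 2.74%, 4.25%, 3%, 1.89%, 3.17% and 3.03%, in the same order. The member median stayed between -1.32 and -1.01 under every alternative tried.

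Length separated the members in both comparisons with input. Over the 62 tested members, Spearman's rho between the length of the encoded protein and the log2 fold change was -0.73 in control xRIP against input and -0.58 in Pum xRIP against input. Over 7401 protein-coding genes it was -0.48 and -0.03. In Pum xRIP against control xRIP it was 0.21 for the members and 0.34 for all protein-coding genes. These are descriptions across genes, which share libraries and are not replicates. Without ND-23, ND-75 and COX8, which had few counts, the member values were -0.70, -0.69 and 0.11.

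All 13 members of 50 to below 100 residues had a fitted value above 0 in control xRIP against input, with a median of 1.32 where 262 protein-coding genes of that length had 1.08. The 8 members of 400 to below 700 residues (among them SdhA, ATPsynbeta, ND-51, UQCR-C1, UQCR-C2, ND-39 and ND-42) had a median of -0.99 where 2160 genes had -1.30. In Pum xRIP against input, the same 8 members had a median of -2.10, with the highest at -1.44, where 2160 genes had -0.96. The 13 short members had -0.05, where the 262 genes had -0.05 too. The sign of values so near 0 in this comparison depends on the scaling, as the member median above shows. In Pum xRIP against control xRIP the medians of the short and long members were -1.35 and -1.07, against -1.03 and 0.22 for all protein-coding genes of those lengths. The median of these 8 members thus lay below that of genes of like length in both comparisons with Pum xRIP. ND-75, the longest tested member at 731 residues, falls outside these ranges, with -0.37 ± 1.86 in Pum xRIP against input and at least 14.2-fold higher mean level in Pum xRIP than in control xRIP, where it had no count, from 1 Pum xRIP library and without a call. Members are shorter than most genes, with a median of 151.5 residues among those tested against 456 for protein-coding genes.

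**Figure D4:**
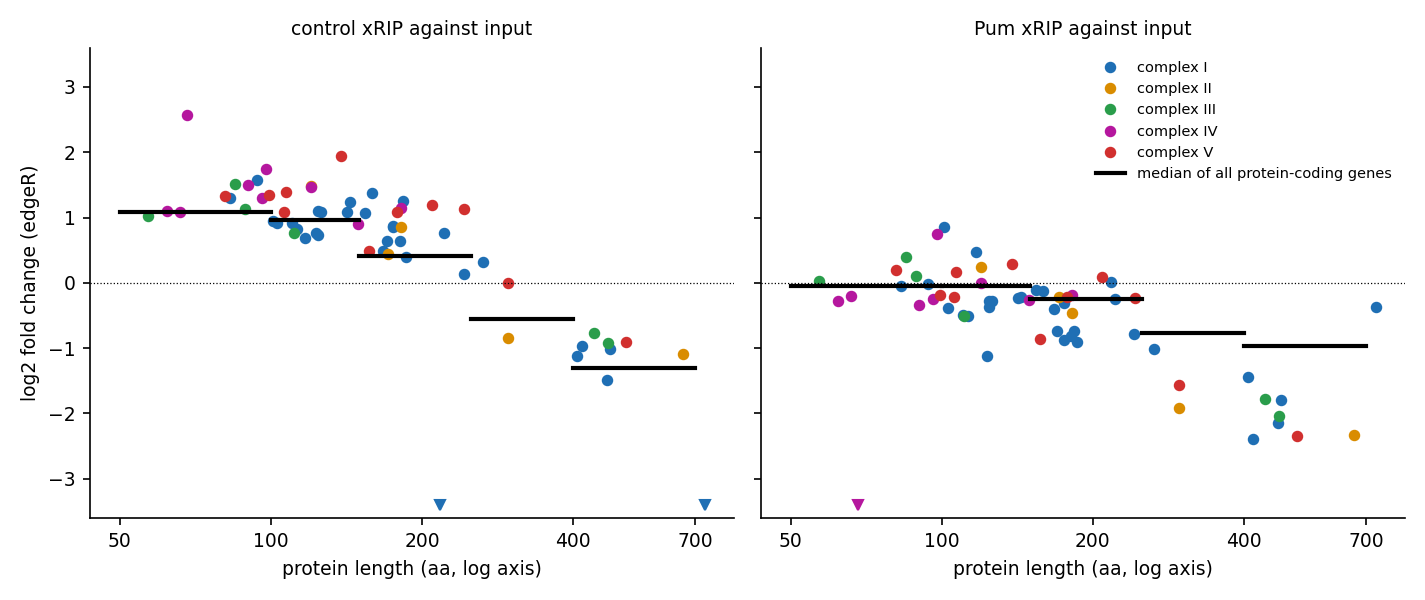
Fitted log2 fold change of the tested members against the length of the encoded protein (residues, log axis) in control xRIP against input (left) and Pum xRIP against input (right). Black bars give the median of all tested protein-coding genes in each of 5 length ranges and triangles mark members beyond the axis. The 8 members of 400 to below 700 residues have medians of -0.99 on the left and -2.10 on the right, where the bar stands at -0.96.

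A few members had very low or uneven counts after the authors' filtering of 3′ ends, whose part in this was not tested. ND-23 (NDUFS8 in human), an iron-sulfur subunit, was at 4.47, 4.19, 9.64 and 1.54 CPM in the inputs, 0, 0, 0 and 0 CPM in control xRIP and 0, 0, 12.4 and 7.55 CPM in Pum xRIP. It had no count in any control library, at least 23.1-fold lower than input when control xRIP is set to the floor of 3 counts over the group, and was not called (adjusted p = 0.053). ND-75 (NDUFS1 in human) was likewise at 0 in all 4 control libraries, with 4.13, 5.59, 0.982 and 5.01 CPM in the inputs and counts in 1 of 4 Pum xRIP libraries. The floor covers counting error only, since reads without molecular identifiers can be copies of few molecules.

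COX8, a small subunit of complex IV, had 5, 4.19, 4.29 and 3.08 CPM in the inputs, 25.1, 72.8, 0 and 0.82 CPM in control xRIP and 0, 0, 0 and 0.244 CPM in Pum xRIP, and its values in control xRIP ran from 0 to 72.8. It had the lowest fitted value in Pum xRIP against input (-5.74 ± 2.35, adjusted p = 0.18), with all Pum xRIP libraries below all inputs, and the highest in control xRIP against input (2.57 ± 2.01, adjusted p = 0.56). ND-15 (NDUFS5 in human) had the highest fitted value in Pum xRIP against input (0.86 ± 1.46, adjusted p = 0.99), at 24.5, 4.32, 9.2 and 4.72 CPM in the inputs, 11, 3.08, 31.1 and 36.9 CPM in control xRIP and 10.4, 33.8, 1.48 and 31.9 CPM in Pum xRIP, so that all groups overlapped. ND-B8 was found in 1 Pum xRIP library, at 38.0 CPM, with at most 1.07 CPM in any input and 0 in control xRIP.

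Duplicate copies of the subunit genes divided into 1 abundant gene and 9 rare ones. COX7AL2 was at 601, 465, 446 and 528 CPM in the inputs, 1310.3, 974, 938 and 1160.4 CPM in control xRIP and 343, 495, 419 and 429.8 CPM in Pum xRIP, a level and a pattern like those of the other small COX genes (log2 fold change 1.10 ± 0.24 (SE, n = 4 and 4), adjusted p = 0.0087 for control against input). The remaining 9 (ATPsynCF6L, ATPsynGL, COX4L, COX5BL, COX6AL, COX7AL, COX7CL, UQCR-6.4L and UQCR-11L) had 0 counts in all 4 Pum xRIP libraries. They summed to 1966 counts in control xRIP, or 128 CPM of the summed library totals, and to 241 counts in input, or 5.39 CPM. The Pum xRIP totals allow up to 0.176 CPM at the floor of 3 counts over the group. Detection was patchy: 14 of 36 pairs of copy and library had a count in control xRIP and 14 of 36 in input. COX6AL was found in 3 control libraries (29.4, 53.3 and 40.2 CPM) and COX7CL in 2 (105.8 and 68.7 CPM), while ATPsynGL and COX5BL were found in 1 each (61.2 and 36.6 CPM). Of these rare copies, 7 were seen in the w1118 input against at most 4 in any other input.

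Many duplicate copies of this kind are expressed in testis in flies. Markers of the male germ line (8 genes, 5 of them tested) took 0.0564% to 0.0993% of counts in control xRIP. They took 0.0210% in the w1118 input, 0.000445% to 0.00378% in the other inputs and at most 0.00194% in Pum xRIP. The tested markers Mst84Dc, Mst84Dd and Mst87F were at 0 in Pum xRIP. The part of male germ line RNA in the counts of the copies was not tested. COX5BL and COX7CL start shortly downstream of COX5B and COX7C on the same strand, so a 3′ end between such neighbours could be counted for either gene.

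Few members carry the sequence that Pum recognizes. The Pumilio Response Element (PRE), TGTANATA on the transcribed strand, was present in the longest annotated 3′ UTR of 3 of 73 members, or 4.11%, against 21.8% of 9648 annotated genes in the tables. Searching only the last 500 nt had to give the same 3 members, since their 3′ UTRs are 162, 213 and 368 nt long. Over all annotated genes that search gave 14.8%. The reversed sequence ATANATGT, searched as a control for base composition, was found in 7 of 73 members and in 18.3% of all. Member 3′ UTRs are short, with a median of 153 nt (for tested genes 168.5 nt against 344.5 nt), and per kilobase searched 0.161 members held a PRE against 0.337 of all genes. The reversed sequence gave 0.376 and 0.283 in the same order. The match is of letters only and does not show a bound site. The 28 nt windows around the 3 matches, read from the dm6 genome, are shown because they are the only matches among the members, with the PRE in capitals:
COX8 (3L:21538916-21538943, minus strand): atggtccagcTGTAAATAaacgtgtgtc
ND-AGGG (3L:24976875-24976902, plus strand): ccaatcaacaTGTACATAtgtacaaatt
COX7AL (3R:8344244-8344271, plus strand): gtaacgtttcTGTACATAggtagttcaa

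None of these 3 genes was enriched with Pum. COX8, whose PRE ends 67 nt before the end of its 213 nt 3′ UTR, had 1 count in the 4 Pum xRIP libraries together, as its levels above show. ND-AGGG (NDUFB2 in human) was at 20.6, 28.3, 25 and 39.2 CPM in the inputs, 107, 69.7, 41.7 and 117 CPM in control xRIP and 101, 0, 10.7 and 0.487 CPM in Pum xRIP, with Pum xRIP 1 far from its 3 partners, and its fitted value against input was -0.01 ± 1.45 (adjusted p = 1.0). COX7AL was among the copies without counts in Pum xRIP and had 19 counts in 1 of the inputs and 0 in the others. Among all 1748 tested genes with a PRE, for comparison, the median log2 fold change was 0.47 in Pum xRIP against input, and among 5646 genes without one it was -0.82.

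In most tested members 1 cluster of 3′ ends held most of the input counts. The 73 members had 395 clusters of 3′ ends in the tables, up to 17 in a gene (ATPsynbeta), and 10 members had 1 cluster. In 47 members 1 cluster held over 90% of the input counts. Of these, 39 were among the 62 tested members, and the rest were untested members with few input counts. The share over all genes was not counted. Counts were found in 340 of the 395 clusters in input, 237 in control xRIP and 204 in Pum xRIP. All xRIP libraries held fewer counts than the inputs. Of 148 tested clusters, 46 were called lower in Pum xRIP than in control xRIP, where 3.07% of all 14235 tested clusters were, and 39 of the 46 were the leading cluster of their gene. None was called higher there, where 8.91% of all clusters were. In either direction 81 of the 148 had an unadjusted p below 0.05, as had 6112 of all 14235 tested clusters. Against input, 17 were lower in Pum xRIP, where 9.48% of all clusters were. In control xRIP against input, 8 were higher (0.576% of all clusters) and 13 lower (25.6%). When clusters with low counts were kept in the fit, both counts in that comparison fell to 1, and the counts of lower clusters in Pum xRIP to 22 against control xRIP and 5 against input. Cluster positions were not used here, so ends are not named as proximal or distal.

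Use of the ends within a gene was tested with diffSpliceDGE of edgeR in 43 members with 2 or more tested clusters. None was called in any of the 3 comparisons, where 0.0323% (Pum xRIP against input), 1.03% (control xRIP against input) and 1.39% (Pum xRIP against control xRIP) of 3095 genes were. Without adjustment 10, 7 and 15 members had a p below 0.05 in these comparisons, in the same order. The share of all genes at that threshold was not counted, and no other tool was run. ATPsynC had its leading cluster at 57.2% to 79.6% of the gene in the inputs, 87.4% to 96.1% in control xRIP and 85.2% to 94.8% in Pum xRIP (adjusted p = 0.11 for control against input). Its leading cluster therefore took a larger share in every xRIP library than in any input. COX4 kept its leading cluster at 80.9% to 90.6% in input, 71.9% to 84.7% in control xRIP and 87.7% to 95.4% in Pum xRIP. Some minor ends were found in input alone: 1 cluster of SdhA with 24 counts or more and 1 of ND-B14.5A with 29 counts or more in every input library had 0 counts in all 8 xRIP libraries. The share of all clusters found in input alone was not counted. Over all 14235 tested clusters the lower quartile of the log2 fold change against input was -7.75 in control xRIP and -2.58 in Pum xRIP. Inputs were also deeper, with 44708857 counts together against 15407257 in control xRIP and 17003954 in Pum xRIP.

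Neighbouring groups of genes showed how far the pattern reached. Respiratory chain genes with other names, Cyt-c-p and Cyt-c-d included, numbered 9, of which 8 were tested. They had medians of 0.83 in control xRIP against input, -0.17 in Pum xRIP against input and -0.87 in Pum xRIP against control xRIP. Of these genes, 2 were called higher in the first comparison, 2 lower in the second and 2 lower in the third. Mitochondrial ribosomal proteins (69 tested) had medians of 0.80, -0.34 and -0.87 in the same order, with 1 called higher in control xRIP and 4 lower in Pum xRIP against control xRIP. Cytoplasmic ribosomal proteins (71 tested) had 1.32, 0.36 and -0.94, with 46 called higher in control xRIP than in input and 27 lower in Pum xRIP than in control xRIP. Enzymes of the tricarboxylic acid cycle and pyruvate dehydrogenase (14 tested) had -1.07, -1.35 and -0.55, with 1 called lower in control xRIP and 3 lower in Pum xRIP, each against input. The vacuolar proton pump (19 tested), another large rotary machine, had -0.74, -0.54 and 0.03. Assembly factors (8 tested, Sdhaf3 left out as a member) had 0.34, -0.59 and -0.53, and carriers, porin and import proteins (8 tested) had -0.68, -0.83 and -0.84. No difference between these lists and the members was tested.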

How the data were processed

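The deposited counts were made by the authors from reads trimmed by fastp and aligned, with splicing switched off, to dm6 by STAR 2.6.1b. The authors removed signal beside genomic runs of A, kept signal within or shortly downstream of annotated genes, joined 3′ ends into clusters and recounted. They deposited raw counts per gene and per cluster for 12 libraries, with no normalization and no molecular identifiers. Gene counts equalled the sum of cluster counts, and the tables of 1 immunopurification with input held the same values (0 differing cells).

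Symbols, positions, protein lengths and 3′ UTRs came from Ensembl release 115 (BDGP6.54, dm6 coordinates), a later annotation than that of the authors, and windows around motifs from the RefSeq genome of the same assembly. All 12 libraries entered 1 edgeR 4.0.16 fit in R 4.3.3 with 3 groups, TMM, filterByExpr and glmQLFit with the legacy option. The SE is the log2 fold change over the square root of F. The fit was also run on simulated counts with known changes and a capped spread, which do not cover the most uneven xRIP counts. DESeq2 1.42.0 was an alternative. Groups followed the sample labels, and the fne and rbp9 columns, which no label assigns to a sample, entered as inputs without a number. Percentages and floors cover counting error only.

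Named members were the 3 most abundant per complex in input, the 6 largest called per comparison and direction, the extreme fitted value of each, duplicate copies reaching 1 CPM and members with a PRE; further names were chosen after their values were seen. Members, lists and tests were chosen with earlier results of these data known. One member that the rule would name is counted but not reported here.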

Additional observations from a re-analysis of the deposited data

Results flagged for a closer look

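In 113 groups of 4 libraries (the named members that were tested, and the shares of the members and of each complex), 11 held a library whose gap to its nearest neighbour was too large a part of the range of the group by the 95% critical value of Dixon. About 1 group in 20 does so by chance, or 5.65 of 113.

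In Pum xRIP, ND-39 was at 482 CPM in library 3 (the median of the other 3 was 191), SdhA at 78.3 CPM in library 2 (28.5) and ND-AGGG at 101 CPM in library 1 (0.487). COX8 had 0.244 CPM in library 4, which is 1 count, and 0 elsewhere. The share of all members was 3.84% in library 3, against a median of 3.62%. In control xRIP, ATPsynbeta was at 1054 CPM in library 1 (660 in the median of the others), COX6B at 2956 CPM in library 3 (4973) and COX7A at 2000.2 CPM in library 3 (1271). In input, COX5B was at 1665 CPM in the rbp9 library (954), ND-ASHI at 348 CPM in the pumFlag library (334) and the share of complex II at 0.0843% in the pumFlag library (0.139%). Without Pum xRIP 3, ND-39 was still called lower than in input, and so was SdhA without Pum xRIP 2.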

How the results depend on the processing

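Counts of called members moved with the settings, while the member medians kept their sign in control xRIP against input (0.56 to 1.25) and in Pum xRIP against control xRIP (-1.32 to -1.01). Depth limits ND-23, ND-75, COX8 and the duplicate copies other than COX7AL2, which had few or no counts in most xRIP libraries. Correlations between same-numbered Pum and control xRIP libraries ran from 0.0011 to 0.021, and those between other pairs from -0.029 to 0.027. Values so near 0 cannot decide whether the numbers mark a shared day or batch, which the labels do not state. With the replicate block on the 8 xRIP libraries 25 members were lower in Pum xRIP, against 26 without the block. The other values were as follows, with causes not tested.

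Members lower in Pum xRIP than in input numbered 5 with size factors, with library totals and without a filter, 1 without both inputs of mixed genotype and 5 to 10 when single libraries were left out, and 1 was higher with size factors. Over all genes 4.15%, 4.58%, 0.765% and 0.4% were lower in the named fits, in the same order. Members higher in control xRIP than in input numbered 8 without both mixed inputs, where 0.752% of all genes were, and 8 to 25 when single libraries were left out. Members lower there numbered 3 with library totals, with edgeR on the 2 groups compared and without the legacy option of edgeR (added after seeing the data), 1 with DESeq2 on 3 groups, 2 with DESeq2 on the 2 groups (also added) and 0 to 4 when single libraries were left out. Members lower in Pum xRIP than in control xRIP numbered 25 with size factors, 23 with library totals, 24 with DESeq2 on 3 groups, 26 with edgeR and 15 with DESeq2 on the 2 groups and 25 to 40 when single libraries were left out. There, 1 was higher with size factors and with DESeq2 on 3 groups, and 0 to 1 when single libraries were left out. Without the filter, clusters lower in Pum xRIP numbered 5 against input and 22 against control xRIP, and in control xRIP 1 was higher and 1 lower than input. Without the 10 most abundant genes of each library the member share was 5.40% in input, 9.44% in control xRIP and 4.67% in Pum xRIP, and leaving out single libraries gave 4.01% to 4.38%, 7.45% to 7.61% and 3.61% to 3.70%.

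The sign changed in 75 of 1978 values of named members, in 16 of 32 members, none past the threshold in either fit. Against input, the log2 fold changes in Pum xRIP with size factors were 0.36 for ND-PDSW, 0.0017 for SdhD, 0.23 for SdhC, 0.27 for COX4, 0.22 for COX6B, 0.26 for COX7C, 0.25 for ATPsynD, 0.13 for COX7B, 0.47 for COX5B, 0.19 for COX7AL2 and 0.52 for ND-AGGG, and DESeq2 on 3 groups gave the same to 2 decimals (0.0016 for SdhD). Both gave 0.18 for ATPsyngamma in control xRIP against input and 0.26 for ND-15 in Pum xRIP against control xRIP. With library totals ND-PDSW was at 0.093, COX5B at 0.19 and ND-AGGG at 0.16, and ND-15 at 0.27 against control xRIP. UQCR-6.4 was at -0.0050 and ND-23 at -0.032 without a filter, and at -0.0097 and -0.066 with edgeR on 2 groups. DESeq2 on 2 groups gave 0.021 for COX5B, -0.051 for ND-23, 0.066 for ND-AGGG, 0.12 for ATPsyngamma in control xRIP and 0.29 for ND-15 against control xRIP, which was 0.074 with edgeR on these 2 groups and without the block. Without both mixed inputs ATPsynF was at -0.048, COX5B at 0.25 and ND-AGGG at 0.18, and without the legacy option COX5B was at 3.56e-05. Leaving out single libraries gave -0.0052 to 0.38 for ATPsynF, -0.16 to 0.24 for COX5B, -0.98 to 0.54 for ND-23, -2.93 to 0.39 for ND-AGGG and -0.17 to 0.20 for UQCR-6.4 in Pum xRIP against input, -0.44 to 0.10 for ATPsyngamma in control xRIP against input and -0.49 to 0.51 for ND-15 in Pum xRIP against control xRIP.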
